A study of Mus musculus with 10 samples.

Results

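A set of 9 genes of the complement system was followed in mouse lung squamous cell carcinoma (SCC) and in normal lung. They were C3, Hc, C4b, Cfb, Cfi, Cd55, Serping1, Clu and C2, taken by gene symbol from a table of 24421 genes, and all 9 were found in it. The data were read counts per gene from 5 SCC libraries, from lung tumours of mice given NTCU (a nitrosourea carcinogen), and 5 libraries of normal lung from mice with no treatment. Both groups were of NIH Swiss mice with a wild-type genotype, and each library came from RNA of laser-captured regions of formalin-fixed, paraffin-embedded sections. The labels give no age and do not say which libraries came from which animal, so p-values measure the spread between libraries, and they come out too small where captured regions share an animal.

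Complement is a cascade of blood and tissue proteins that marks surfaces for uptake and lysis. The classical and lectin pathways cut C4 and C2, and the alternative pathway uses factor B, and each forms an enzyme (a convertase) that cleaves the central protein C3. Cleaved C3 coats the surface and leads to cleavage of C5, which starts the membrane attack complex, while soluble and membrane-bound regulators stop the cascade on host cells. Much of the circulating supply is made in liver, and lung epithelium, fibroblasts and macrophages make several components locally. The gene Hc (hemolytic complement) encodes C5 in the mouse and is known as a gene of alveolar type 2 cells, the surfactant-producing cells of the air sacs.

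Total counts ran from 1004105 to 3691806 in SCC libraries and from 1457641 to 6817106 in normal lung. The labelled tissues carried their defining markers. Krt5, a basal keratin, stood at 201 to 1486 CPM (counts scaled to a common library total) in SCC and at 0 to 5.49 CPM in normal lung. The 8 squamous and basal genes listed summed to 1034 to 7308 CPM in SCC and 6.56 to 30.9 CPM in normal lung. All 8 were called higher in SCC, where 12.5% of all tested genes were. They passed the filter on low counts through the SCC libraries, where they are high, so those calls add no support to the levels. SCC 1, SCC 3 and SCC 4 stood apart from SCC 2 and SCC 5 by counts on olfactory, vomeronasal and trace amine receptor genes, which lung is not known for. This receptor signal was 3.23, 3.28 and 3.51 CPM per kb of coding length in SCC 1, SCC 3 and SCC 4, 0.591 and 0.420 in SCC 2 and SCC 5, and 0.0397 to 0.199 in normal lung. Read as a background spread evenly along transcripts, it would make up 17.7% to 21.0% of the counts in SCC 1, SCC 3 and SCC 4, 2.45% to 3.53% in SCC 2 and SCC 5 and at most 1.10% in normal lung. Results are therefore also given for a fit of SCC 2 and SCC 5 against the normal libraries, and after subtraction of this estimated background.

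The promoter sequences of C3 and Hc are shown first because these were, with Serping1, the members with the highest level per kb of transcript in normal lung, and both fell in SCC. Each run holds 250 bases before and 50 bases after the start site in the RefSeq table (GRCm38.p6), read 5′ to 3′ on the minus strand, from chr17:57228087-57228386 for C3 and chr2:35061363-35061662 for Hc. Capitals mark matches to one of 6 motifs searched on both strands: TATAAA (a core promoter element), TTNNGNAA (bound by C/EBP factors), TTCNNNGAA (STAT factors), the NF-κB motif, CTCAAG (NKX2-1) and TGTTTAC (forkhead factors).
C3: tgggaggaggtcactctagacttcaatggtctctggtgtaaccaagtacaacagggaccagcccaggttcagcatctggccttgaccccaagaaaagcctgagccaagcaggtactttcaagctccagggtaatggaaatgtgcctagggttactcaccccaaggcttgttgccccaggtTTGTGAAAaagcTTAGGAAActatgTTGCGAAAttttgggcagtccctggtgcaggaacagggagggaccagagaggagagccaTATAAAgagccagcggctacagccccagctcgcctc
Hc: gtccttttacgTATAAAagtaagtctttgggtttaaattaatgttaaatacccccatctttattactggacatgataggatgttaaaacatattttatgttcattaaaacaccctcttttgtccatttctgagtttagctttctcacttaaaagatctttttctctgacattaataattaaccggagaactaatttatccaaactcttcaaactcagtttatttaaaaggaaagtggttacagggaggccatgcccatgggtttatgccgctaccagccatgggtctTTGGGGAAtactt

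The C3 run holds TTNNGNAA at 3 positions, which start 70, 58 and 45 bases before the start site, the last of them on both strands, and TATAAA from base 15 after it. At least 1 TTNNGNAA match occurs in 40.7% of the 32841 promoter runs of this length, and matches at 3 or more positions in 3.60%. The Hc run holds 1 TTNNGNAA match, from base 38 after the start site, and TATAAA from 239 bases before it, a motif found in 13.6% of the runs. Neither run holds a match to the other 4 motifs, which occur in 8.30% (TTCNNNGAA), 1.63% (NF-κB), 15.9% (CTCAAG) and 3.65% (TGTTTAC) of the runs. The base composition differed, with 53.3% G and C in the C3 run and 34.7% in the Hc run. Of the 9 members, 3 are in the promoter table, the other being Cd55.

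Of the 9 members, 4 fell in SCC (Hc, Serping1, C3 and C4b), 1 rose (Cfi, which passed the filter on low counts through the SCC libraries alone) and 4 did not pass the test (Cfb, Clu, Cd55 and C2). Calls rest on edgeR's quasi-likelihood test over 13203 genes, with a threshold of 0.05 on the Benjamini-Hochberg adjusted p. It called 21.1% of genes, 8.68% as lower and 12.5% as higher in SCC. The median log2 fold change of the 9 members was -1.44, against 0.07 over all genes tested. The groups did not overlap for Hc, C3 and Serping1, with SCC below, as for 5.77% of tested genes, nor for Cfi, with SCC above, as for 8.81%. With SCC 2 and SCC 5 alone 3 members were lower and 1 higher, where 9.3% of all genes were called, 5.16% as lower and 4.14% as higher, and after background subtraction 3 of 8 tested members were lower and 0 higher, where 15.1% were called, 6.8% as lower and 8.27% as higher. C4b lost its call in both of these fits, and Cfi could not be tested after subtraction. With the receptor signal as a covariate, which largely follows the groups, Hc kept its call (log2 fold change -5.58, edgeR adjusted p = 0.000706). C3 (-0.94, adjusted p = 0.515), Serping1 (-1.36, adjusted p = 0.242), Cfi (4.47, adjusted p = 0.179) and C4b (0.04, adjusted p = 0.987) were not called in that fit.

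**Figure D1:**
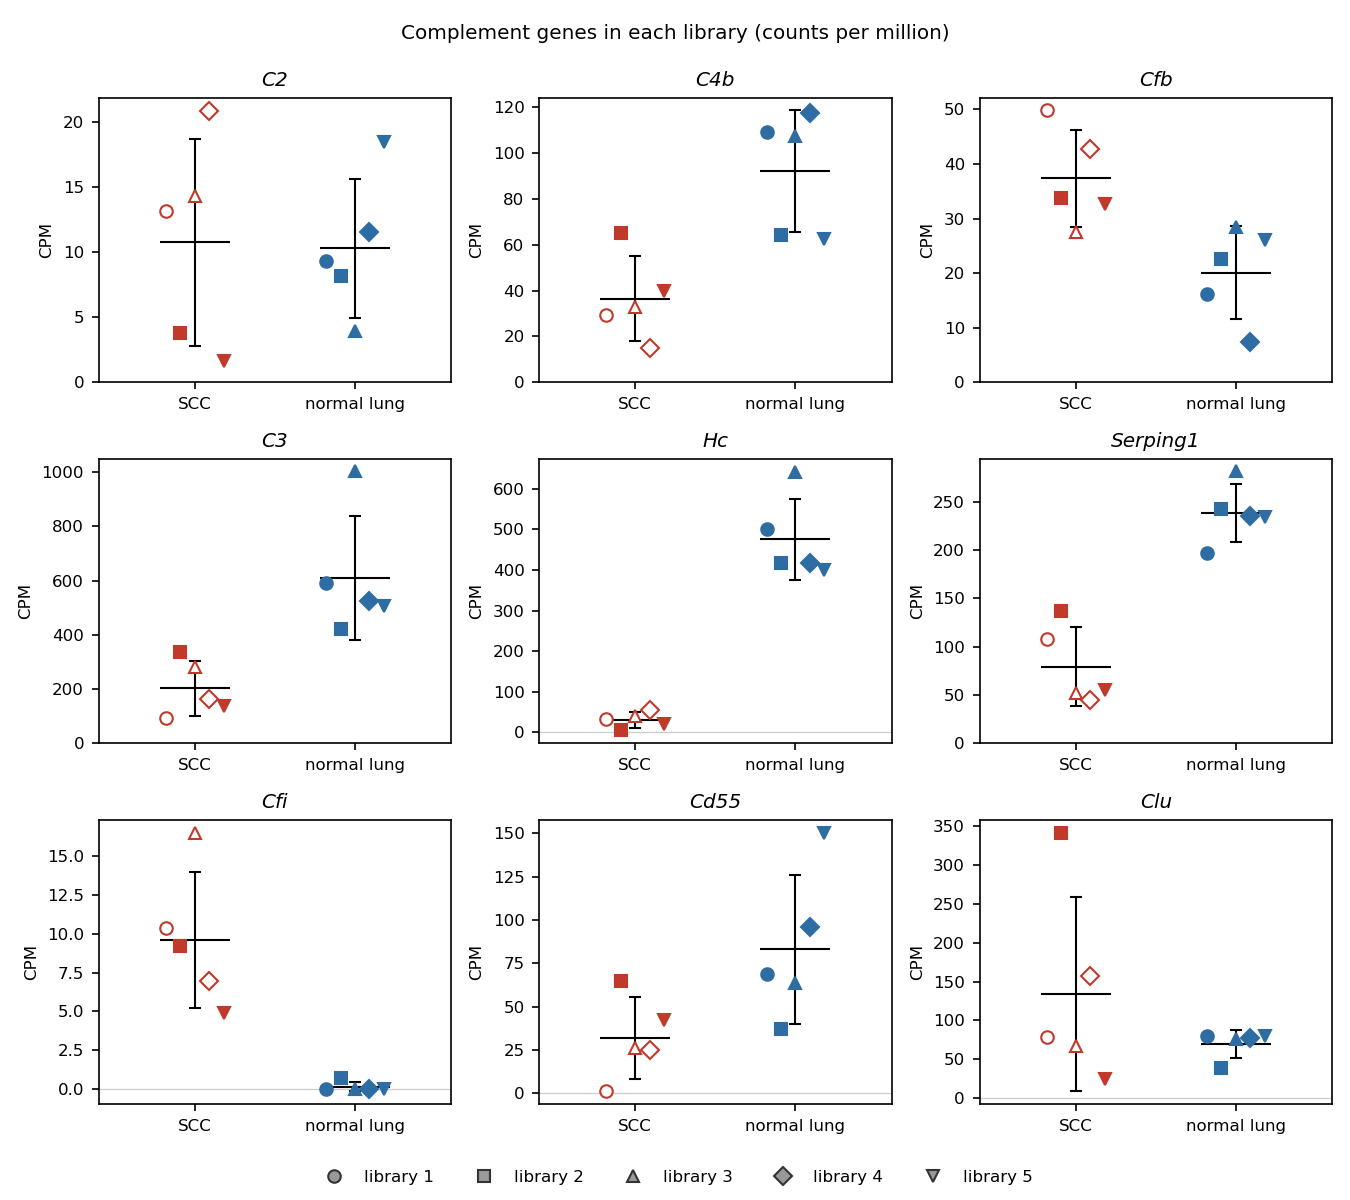
Level in CPM of each of the 9 complement genes in each library, SCC in red and normal lung in blue, with marker shapes for library numbers 1 to 5, open red markers for SCC 1, SCC 3 and SCC 4, with black bars giving group means and SDs (5 libraries a group). All SCC points of C3, Hc and Serping1 lie under all normal points, Cfi lies higher, and the groups overlap for the other genes.

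C3, the protein on which all activation pathways converge, lies on chromosome 17 (57203970 to 57228136, minus strand, GRCm38, 41 exons). Its level was 93.3, 336, 282, 163 and 139.6 CPM in SCC 1 to SCC 5, against 591, 420.4, 1003, 524 and 506 CPM in normal 1 to normal 5. The highest SCC library, SCC 2, stood below the lowest normal library. C3 fell by 1.70 on the log2 scale (SE 0.41, edgeR adjusted p = 0.00381, n = 5 each), with means of 203 ± 102 CPM in SCC and 609 ± 229 CPM in normal lung (SD). With SCC 2 and SCC 5 alone its log2 fold change was -1.50 (adjusted p = 0.0165), and subtracting the background gave -1.33 (adjusted p = 0.0270). The estimated background was 3.51% of the SCC counts of C3.

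Hc, the C5 gene (chromosome 2, 34983331 to 35061438, minus strand, 41 exons), had the largest fall among the members. Its level was 33.9, 4.60, 39.6, 55.8 and 20.01 CPM in SCC 1 to SCC 5, against 500.0, 418, 641, 416 and 401 CPM in normal 1 to normal 5. Each SCC library was far below each normal library, and SCC 2 was the lowest. Hc fell by 4.08 on the log2 scale (SE 0.51, edgeR adjusted p = 2.48e-06, n = 5 each), with group means of 30.8 ± 19.5 CPM in SCC and 475 ± 101 CPM in normal lung (SD). Of the SCC counts, 38.1% would be background by the estimate, and the log2 fold change was -5.38 in the fit of SCC 2 and SCC 5 (adjusted p = 1.11e-06) and -4.23 after subtraction (adjusted p = 0.000125).

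Markers of alveolar type 2 cells moved with Hc. All 12 markers listed were lower in SCC, where 8.68% of all genes were, with a median log2 fold change of -3.47. Their summed level was 866 to 1446 CPM in SCC and 9514 to 12667 CPM in normal lung. Sftpc, a surfactant protein, was at 75.9 to 238 CPM in SCC and 2554 to 4916 CPM in normal lung, and Sftpb and Sftpa1 had log2 fold changes of -3.98 and -3.66. In tissue samples, fewer cells of a type and less RNA per cell cannot be told apart. Among Hc and the markers, Sftpc (-4.59) and Slc34a2 (-4.20) had larger falls than Hc, and the others smaller ones.

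Relative to the mean log2 CPM of the 12 markers in the same library, Hc lay at -0.84, -3.87, -0.36, -0.32 and -0.96 in SCC 1 to SCC 5, and at 0.09, -0.22, 0.23, -0.14 and -0.16 in normal 1 to normal 5. The groups did not overlap. The difference was -1.23 on the log2 scale (exact two-sided permutation p = 0.00794, the smallest that 252 relabelings allow, n = 5 each), with 5 of 5 SCC libraries below the lowest normal one. SCC 2 set much of its size, and the difference was -0.58 without it (exact permutation p = 0.00794). SCC 2 held 17 counts of Hc, and the estimated background was 69.8% of them, so its ratio rests on few counts. On leaving out 1 library the difference ran from -1.47 to -0.58 (exact permutation p = 0.00794 to 0.0476). This ratio, taken without background subtraction, shows unequal change of Hc and the average marker. Several single markers, Lyz2 and Napsa among them, fell less than Hc.

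**Figure D2:**
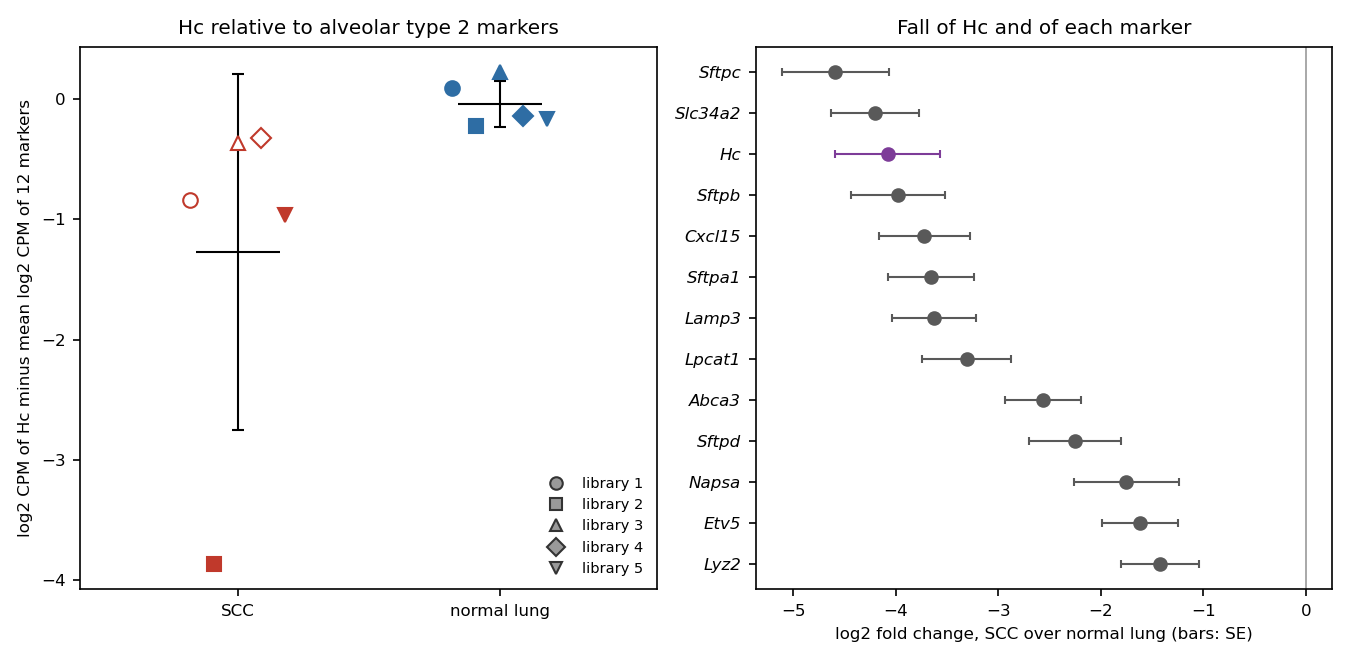
Left, log2 CPM of Hc minus the mean log2 CPM of 12 alveolar type 2 markers in each library (open red markers for SCC 1, SCC 3 and SCC 4), with the mean and SD of 5 libraries; right, log2 fold change with standard error of Hc (purple) and each marker (grey). The SCC libraries lie at -0.32 or below and SCC 2 at -3.87, normal libraries between -0.22 and 0.23, and Hc falls by 4.08, between Slc34a2 and Sftpb.

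C4b and C2 form the convertase of the classical and lectin pathways. C4b (chromosome 17, 34728380 to 34743882, minus strand) was at 29.2, 65.3, 33.0, 14.9 and 39.6 CPM in SCC 1 to SCC 5, against 109, 64.3, 108, 117 and 62.4 CPM in normal lung. The groups overlapped through SCC 2, which stood just above the 2 lowest normal libraries. C4b fell by 1.44 on the log2 scale (SE 0.40, edgeR adjusted p = 0.0104, n = 5 each). With SCC 2 and SCC 5 alone its log2 fold change was -0.96 (adjusted p = 0.197), and subtraction gave -1.68 (adjusted p = 0.0723), neither past the threshold. The estimated background reached 126% of its counts in SCC 4 and 59.4% in SCC 1, against 4.87% in SCC 2. C4a, a close copy of C4b, shares 35.2% of the 50-base windows of the C4b transcript, so reads from both genes may have been mixed or dropped. C4a itself had 73 counts over the SCC libraries and 45 over the normal libraries, against 444 and 1527 for C4b.

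C2 (chromosome 17, 34862604 to 34898265, minus strand) was the member with the lowest level in SCC, per kb. It had 13.2, 3.79, 14.3, 20.9 and 1.63 CPM in SCC 1 to SCC 5, against 9.31, 8.20, 3.96, 11.6 and 18.5 CPM in normal lung. The groups overlapped, with SCC 2 and SCC 5 below the other SCC libraries. The log2 fold change was -0.10 (SE 0.77, edgeR adjusted p = 0.943), and the estimated background was 53.9% of its SCC counts, so a change was not detectable at this depth.

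Cfb, factor B of the alternative pathway (chromosome 17, 34856374 to 34862518, minus strand), lies 85 bases from C2. It was at 49.97, 33.9, 27.5, 42.8 and 32.7 CPM in SCC 1 to SCC 5, against 16.1, 22.6, 28.5, 7.33 and 26.1 CPM in normal lung. SCC 3 fell within the normal range, and the other 4 SCC libraries were above each normal library. The difference did not pass the test (log2 fold change 0.78, SE 0.48, edgeR adjusted p = 0.271), with means of 37.4 ± 8.94 CPM in SCC and 20.1 ± 8.52 CPM in normal lung (SD, n = 5 each). Reads of Cfb and C2 could also be claimed by Gm20547, an annotated gene model spanning both, which shares 81.4% of the 50-base windows of Cfb and 58.0% of those of C2, and is not a row of the table. C2 also overlaps exons of Zbtb12 on the opposite strand over 161 bases, and the counting's strand setting is not given in the sources used.

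Serping1, the C1 inhibitor that blocks the first proteases of the classical pathway (chromosome 2, 84765387 to 84775444, minus strand, 8 exons), fell. Its level was 107, 137, 52.3, 44.8 and 55.1 CPM in SCC 1 to SCC 5, against 197, 243, 282, 235 and 234 CPM in normal 1 to normal 5. The normal libraries lay close together and above each SCC library. Serping1 fell by 1.72 on the log2 scale (SE 0.38, edgeR adjusted p = 0.00157, n = 5 each). In the fit of SCC 2 and SCC 5 the log2 fold change was -1.46 (adjusted p = 0.0156), and subtraction gave -1.42 (adjusted p = 0.00683), with 3.18% of its SCC counts as estimated background. Of 8 fibroblast genes 4 were lower and 0 higher, where 8.68% and 12.5% of all genes were, and they summed to 305 to 1107 CPM in SCC and 1817 to 2274 CPM in normal lung. Their collagens Col1a1, Col1a2 and Col3a1 did not pass the test (log2 fold changes 0.12, -0.88 and -0.64, edgeR adjusted p = 0.891, 0.153 and 0.328). The part of fibroblast genes in the falls of Serping1, C3 and C4b was not tested.

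Cfi, factor I, the soluble protease that cuts C3b and C4b into inactive forms (chromosome 3, 129835884 to 129875332, plus strand, 14 exons), was the member that rose. It had 11, 34, 30, 7 and 12 counts in SCC 1 to SCC 5, or 10.4, 9.21, 16.5, 6.97 and 4.90 CPM, against 1 count in normal 2 (0.684 CPM) and 0 counts in the other 4 normal libraries. A count of 0 allows up to 0.440 to 2.06 CPM in those 4 libraries (3 counts per library, counting error only), under the level in each SCC library. Over pooled libraries the ratio was 142, with an exact 95% counting interval of 24.8 to 5660. Cfi passed the filter on low counts only through the SCC libraries, where it is high, so its edgeR adjusted p of 0.000758 (n = 5 each) is no support beyond these counts. With no filter but a total above 0 the adjusted p was 0.00135.

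Much of the Cfi signal in 3 SCC libraries was of the size of the estimated background. The background was 64.7%, 41.3% and 105% of its counts in SCC 1, SCC 3 and SCC 4, against 13.3% in SCC 2 and 17.8% in SCC 5. After subtraction 3.77, 7.86, 9.91, 0 and 4.08 CPM were left in SCC 1 to SCC 5, and too few counts remained to pass the filter. The fit of SCC 2 and SCC 5, entered in the same way, gave a log2 fold change of 5.71 (SE 1.62, edgeR adjusted p = 0.0273). Hepatocyte genes, 6 in the list, summed to 10.8 to 78.7 CPM in SCC and 0.358 to 8.20 CPM in normal lung, and their part in the Cfi level was not tested. Apob, the apolipoprotein B gene and the 1 of them with enough counts to be tested, was at 36.8, 3.52, 46.2, 30.9 and 7.76 CPM in SCC 1 to SCC 5 and at 0.147 to 6.15 CPM in normal lung. It was called higher (log2 fold change 3.19, SE 0.93, edgeR adjusted p = 0.0148), but not in the fit of SCC 2 and SCC 5 (1.05, adjusted p = 0.728), and the estimated background was 121% of its SCC counts. Like Cfi, Apob passed the filter on low counts through the SCC libraries, where it is high, so its call adds no support to the levels. Alb, Ttr and Apoa1 reached at most 9.43, 16.0 and 10.5 CPM in an SCC library (SCC 1, SCC 1 and SCC 3) and 1.37, 0.684 and 0.686 CPM in a normal library. They were at 0.542, 2.71 and 2.98 CPM in SCC 2 and at 0.408, 0.817 and 0 CPM in SCC 5. The estimated background was 126%, 41.5% and 50.5% of their SCC counts.

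Cd55, decay-accelerating factor, a membrane protein that takes convertases apart (chromosome 1, 130439027 to 130462744, minus strand), varied widely within SCC. It was at 0.943, 65.0, 25.9, 24.9 and 42.1 CPM in SCC 1 to SCC 5, against 68.7, 36.9, 63.8, 96.1 and 150.2 CPM in normal lung. SCC 1 held a single count, where the estimated background alone would give 8.17 CPM. At 867% of the counts seen, the estimate exceeded all the signal of Cd55 there, so it need not hold for single genes. The log2 fold change of -1.49 (SE 0.55) missed the threshold (edgeR adjusted p = 0.0532, n = 5 each). Limited to SCC 2 and SCC 5 it was -0.77 (adjusted p = 0.396), after background subtraction -1.40 (adjusted p = 0.169) and with the receptor signal as a covariate -0.61 (adjusted p = 0.767). Cd55 passed without a filter on low counts (-1.77, adjusted p = 0.00226) and with DESeq2 (-1.47, adjusted p = 0.0409) or limma-voom (-1.89, adjusted p = 0.00214). Those settings called 7542, 7767 and 6025 genes in all, against 2791 in the main fit. The copy Cd55b, which shares 10.7% of the 50-base windows of Cd55, had 9 counts over SCC and 3 over normal lung.

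Clu, clusterin, a secreted chaperone that also blocks the membrane attack complex (chromosome 14, 65968483 to 65981547, plus strand, 9 exons), was at 79.2, 341, 67.2, 157 and 24.9 CPM in SCC 1 to SCC 5, against 79.5, 38.3, 75.5, 77.9 and 79.6 CPM in normal lung. SCC libraries lay both above and below the normal range. The log2 fold change was 0.78 (SE 0.47, edgeR adjusted p = 0.262, n = 5 each), and 0.07 without SCC 2 (adjusted p = 0.933), which alone had the highest value. The SD of log2 CPM was 1.33 in SCC and 0.43 in normal lung.

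**Figure D3:**
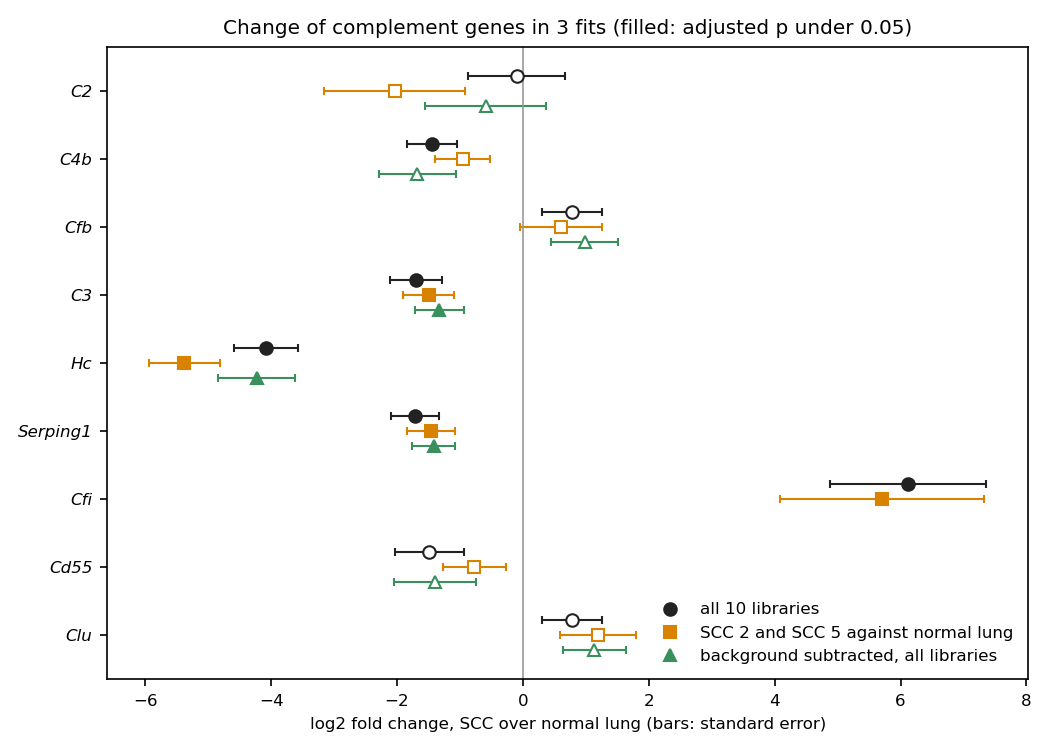
Log2 fold change of each complement gene, SCC over normal lung, with standard error, for all 10 libraries (circles), SCC 2 and SCC 5 against normal lung (squares) and all libraries after background subtraction (triangles), filled where the adjusted p was under 0.05. C3, Hc and Serping1 are filled and below 0 in each fit, Cfi is filled and above 0 in the 2 fits that could test it, and C4b is filled with all libraries alone.

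Levels of different genes were compared per kb of transcript. In SCC the mean level in CPM per kb was 74.0 for Clu, 44.9 for Serping1, 39.5 for C3, 13.7 for Cfb, 12.5 for Cd55, 6.77 for C4b, 5.65 for Hc, 4.61 for Cfi and 4.08 for C2. In normal lung it was 135 for Serping1, 119 for C3, 87.3 for Hc, 38.8 for Clu, 32.8 for Cd55, 17.1 for C4b, 7.35 for Cfb, 3.90 for C2 and 0.0658 for Cfi. Clu rested on SCC 2 (189 CPM per kb), and its SCC mean was 45.4 CPM per kb without that library. The SCC means of Hc, Cfi and C2 were close to the receptor signal of SCC 1, SCC 3 and SCC 4 (3.23 to 3.51 CPM per kb), and after background subtraction they were 3.45, 2.46 and 1.87 CPM per kb. In SCC each neighbour in this order overlapped the next in range over libraries. In normal lung the ranges separated Hc from Clu, C4b from Cfb and C2 from Cfi, and the other neighbours overlapped. Hc thus came after Serping1 and C3 alone in normal lung, and was followed by Cfi and C2 alone in SCC, where Clu headed the order. The 9 genes together took 361 to 997 CPM in SCC libraries and 1252 to 2206 CPM in normal libraries.

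The other complement genes, 50 in all, were grouped by role, and 27 of them had enough counts to be tested. In the fit with all libraries 4 were higher and 6 were lower in SCC, where 12.5% and 8.68% of all genes were called, with a median log2 fold change of 0.20, against 0.07 over all genes. With SCC 2 and SCC 5 alone 1 of 31 tested was higher and 4 lower (median -0.86), where 4.14% and 5.16% of all genes were. Subtraction left 2 of 22 higher and 5 lower (median -0.20), where 8.27% and 6.8% of all genes were. The median was thus above 0 in the fit with all libraries alone, and with the receptor signal as a covariate C3ar1 and Cd93 were the 2 of the 10 called genes that kept their call.

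At the start of the classical and lectin pathways, 2 of 9 tested genes were lower and 0 higher. Over all genes 8.68% were called lower and 12.5% higher, or 21.1% in either direction, and the count is too small for a result about these pathways. C1s1, a protease of the C1 complex, was at 6.12 to 27.6 CPM in SCC and 27.4 to 62.6 CPM in normal lung (log2 fold change -1.55, SE 0.47, edgeR adjusted p = 0.0180), but was not called from SCC 2 and SCC 5 alone (-1.66, adjusted p = 0.109). C1ra, the protease that activates it, was at 0 to 25.9 CPM in SCC and 18.9 to 88.2 CPM in normal lung (-2.24, SE 0.69, adjusted p = 0.0206), with 58.6% of its SCC counts as estimated background and no call after subtraction (-2.59, adjusted p = 0.0708), nor without normal 2 (-1.89, adjusted p = 0.0572). The C1q chains, which recognise antibody and are made by macrophages, did not pass the test. C1qb stood at 24.1 to 77.3 CPM in SCC and 2.31 to 20.4 CPM in normal lung with no overlap (log2 fold change 1.49, SE 0.55, adjusted p = 0.0557), C1qc had a log2 fold change of 1.59 (adjusted p = 0.101) and C1qa one of 0.33 (adjusted p = 0.746).

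In the terminal pathway C7, a component of the membrane attack complex, fell. It was at 0.817 to 58.2 CPM in SCC and 66.6 to 275 CPM in normal lung, without overlap (log2 fold change -2.98, SE 0.57, edgeR adjusted p = 0.000409). The call was lost with SCC 2 and SCC 5 alone (-2.76, adjusted p = 0.190), the 2 libraries being at 58.2 and 0.817 CPM. C6 had a log2 fold change of -1.43 (adjusted p = 0.116), and C8a, C8b, C8g and C9 had too few counts to be tested, as had Cfd and Cfp of the alternative pathway.

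Among 8 tested regulators 2 fell and 2 rose, where 8.68% of all genes were called lower and 12.5% higher. In the fit of SCC 2 and SCC 5, 2 of 10 tested regulators fell and 0 rose, where 5.16% of all genes were called lower and 4.14% higher. After subtraction 2 of 5 tested fell and 0 rose, where 6.8% of all genes were called lower and 8.27% higher. Cr1l, known as Crry, a membrane regulator of C3 and C4 in rodents, was at 6.94 to 14.1 CPM in SCC and 18.9 to 55.6 CPM in normal lung without overlap (log2 fold change -1.97, SE 0.51, edgeR adjusted p = 0.00624). Its call held in the fit of SCC 2 and SCC 5 (-2.24, adjusted p = 0.0424) and after subtraction (-2.19, adjusted p = 0.0175). Csmd1 and Csmd2, long genes for membrane proteins with complement control domains, had log2 fold changes of 2.84 and 3.55 (adjusted p = 0.00125 and 0.00117). Csmd1 was at 18.0 to 70.5 CPM in SCC and 2.05 to 9.60 CPM in normal lung, and Csmd2 at 10.2 to 79.7 and 0.684 to 8.92 CPM. Like Cfi, both passed the filter on low counts through the SCC libraries, where they are high, so these p-values add no support to the levels. The estimated background was 61.6% and 74.0% of their SCC counts, and neither was called when SCC 2 and SCC 5 were fitted alone (1.81 and 1.69, adjusted p = 0.238 and 0.412).

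Of 8 tested receptors 2 rose and 1 fell, where 12.5% of all genes were called higher and 8.68% lower. C3ar1, the receptor of the C3a fragment, was at 50.9, 62.0, 53.4, 48.8 and 73.1 CPM in SCC 1 to SCC 5, against 9.31, 4.78, 6.60, 1.54 and 1.37 CPM in normal 1 to normal 5. Each SCC library was above each normal library and the SCC values lay close together. C3ar1 rose by 3.48 on the log2 scale (SE 0.55, edgeR adjusted p = 4.89e-05), by 3.70 in the fit of SCC 2 and SCC 5 (adjusted p = 0.00112) and by 3.73 after subtraction (adjusted p = 0.000631). With all libraries, also after subtraction or with the covariate, C3ar1 passed the filter on low counts through the SCC libraries, where it is high. The p-values of those fits thus add no support to the levels. Of 7 tested macrophage markers 1 was higher (Cd14) and 1 lower (Csf1r), where 12.5% and 8.68% of all genes were. Cd14 passed the filter on low counts with the help of the SCC libraries, where it is high, so its call adds no support to its level. The listed macrophage markers summed to 222 to 672 CPM in SCC and 336 to 463 CPM in normal lung. Marco, at 0 in SCC 5 and at most 23.6 CPM in the other SCC libraries and 5.01 CPM in normal lung, was the marker with too few counts to be tested. Cd68, Mrc1 and Adgre1 did not pass the test (log2 fold changes 0.55, -0.45 and -0.41).

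C5ar2, the second receptor of C5a, rose by 1.55 (SE 0.52, edgeR adjusted p = 0.0336), a call lost in the fit of SCC 2 and SCC 5 (0.69, adjusted p = 0.660), without a filter on low counts (1.09, adjusted p = 0.125) and on leaving out SCC 3, SCC 4 or any normal library (adjusted p = 0.0657 to 0.202). C5ar1, the main C5a receptor, had a log2 fold change of -0.40 (adjusted p = 0.672). Cd93, an endothelial and myeloid membrane protein once described as a C1q receptor, fell by 2.62 (SE 0.37, adjusted p = 1.63e-05), at 89.4 to 146 CPM in SCC and 495 to 728 CPM in normal lung. Endothelial genes fell beside it, with 7 of 8 markers lower, where 8.68% of all genes were. Their summed level was 106 to 263 CPM in SCC and 2017 to 3326 CPM in normal lung, and their part in the Cd93 level was not tested.

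**Figure D4:**
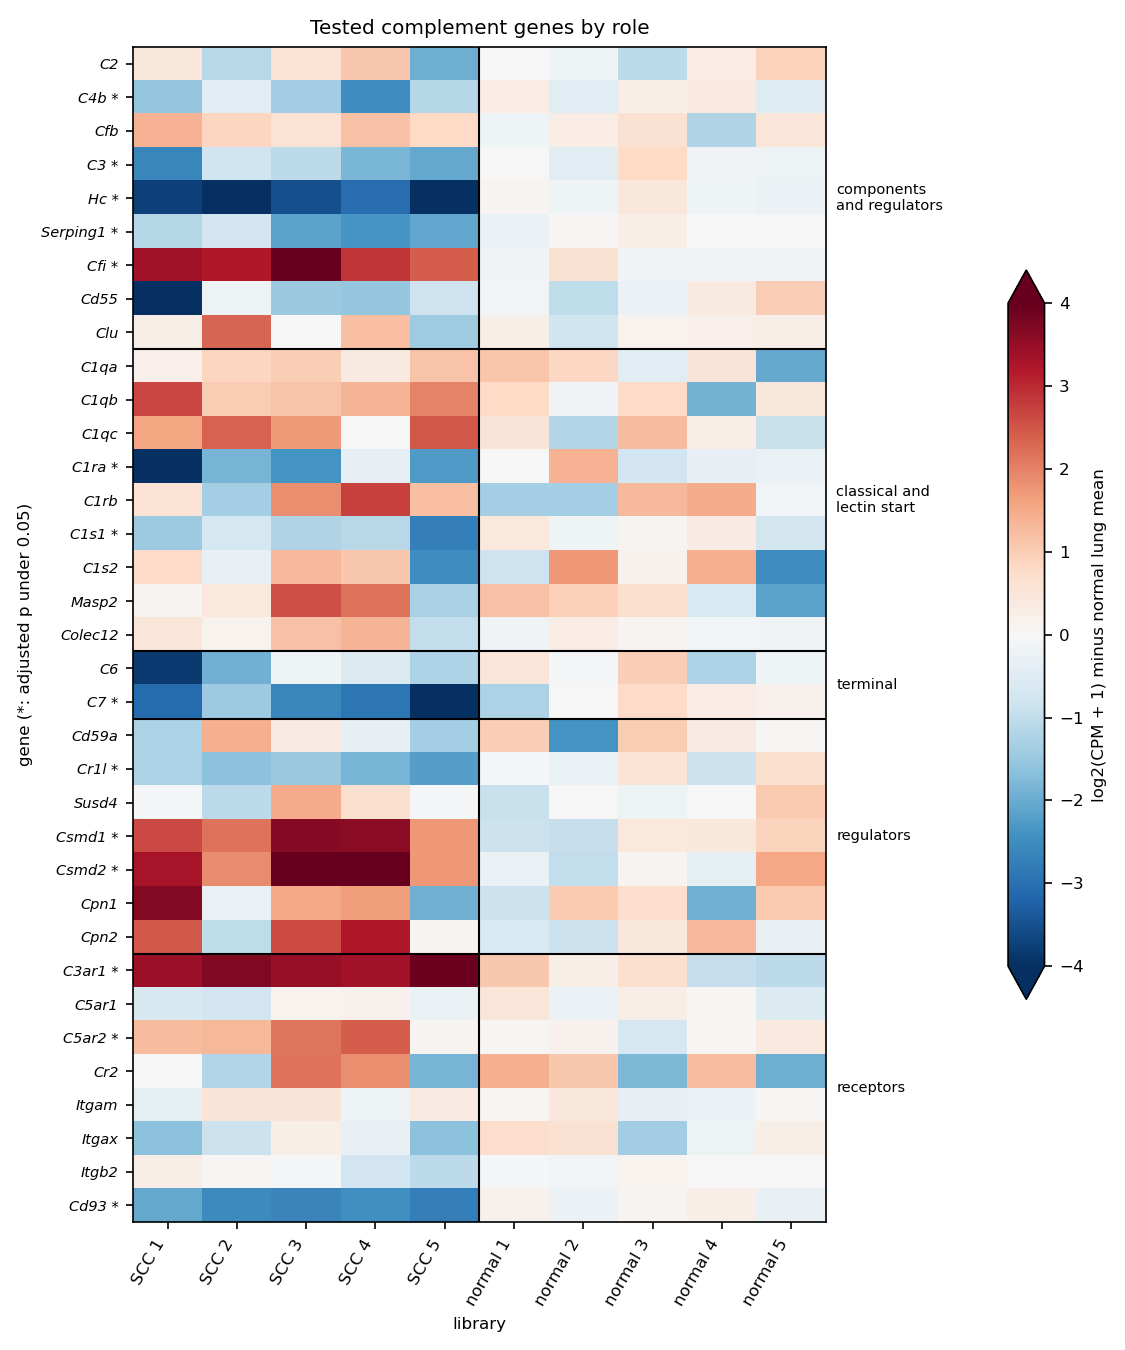
Log2(CPM + 1) minus the normal lung mean for tested complement genes, in rows grouped by role, and the 10 libraries in columns, SCC left of the line; stars mark an adjusted p under 0.05, and red is higher and blue lower than the normal mean. C3ar1 and Cfi are red and Hc, C7 and Cd93 are blue in each SCC column, while Csmd1 and Csmd2 are darkest in SCC 3 and SCC 4.

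Complement genes respond in other tissues to interleukin-6, interleukin-1 and interferon signals. Among 15 tested genes of these signals, 1 was higher and 2 lower (median log2 fold change -0.08), also near the 21.1% called over all genes, so the count is not a result about these signals. Lif, a cytokine of the interleukin-6 family, rose by 2.16 (SE 0.61, edgeR adjusted p = 0.0114), a call lost when SCC 2 and SCC 5 were fitted alone (1.63, adjusted p = 0.274) and without SCC 1 (1.84, adjusted p = 0.0569). Its level was 12.7 to 52.8 CPM in SCC and 3.52 to 7.72 CPM in normal lung. Lif passed the filter on low counts with the help of the SCC libraries, where it is high. The p-value with all libraries thus adds no support to these levels. Il6st, the shared receptor chain of that family, fell to 82.7 to 200 CPM in SCC, against 338 to 508 CPM in normal lung (log2 fold change -1.70, SE 0.37, adjusted p = 0.00139). Cebpb, a transcription factor of the C/EBP family, fell by 1.52 (SE 0.46, adjusted p = 0.0184), and was not called in the fit of SCC 2 and SCC 5 (-0.70, adjusted p = 0.354) or after subtraction (-1.42, adjusted p = 0.0599). Of 8 tested acute phase genes, plasma proteins of the inflammatory response, 0 were higher and 2 lower, where 12.5% and 8.68% of all genes were. This count too is small and is not a result about these genes as a set. The lower ones were Hp, haptoglobin (-2.86, SE 0.52, adjusted p = 0.000239), and Itih4 (-2.61, SE 0.60, adjusted p = 0.00226).

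For each called member the 3 genes with the most similar profile over the 10 libraries were found among genes averaging 5 CPM or more, by the root mean square difference of log2 CPM after centring on the normal mean. For Hc these were Kdr, Lamp3 and Slc34a2 (differences of 0.765, 0.785 and 0.893), the first an endothelial receptor and the others type 2 cell genes. For C3 they were Ddah2, Tgm2 and Rhoj (0.299, 0.321 and 0.346), and for Serping1 Ctdspl, Il6st and Elk4 (0.235, 0.265 and 0.279). For C4b they were Stag2, Ddx5 and Gnai2 (0.241, 0.306 and 0.312), and for Cfi Sectm1b, Glis1 and Gm16982 (0.316, 0.387 and 0.429).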

How the data were processed

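The authors deposited a table of whole-number read counts per gene symbol, 1 column per library, with no normalization. The mm10 build and the tools HTSeq 0.6.1, TopHat2 2.0.1, DESeq2 and cutadapt 1.9.1 appear in the submitters' processing notes. Which annotation and strand setting were used, and how reads with several matches were treated, is not given in the sources used. Per the labels' protocols, total RNA was prepared with a stranded kit for very small inputs.

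Counts were tested in R 4.3.3 with edgeR 4.0.16 (filterByExpr by group, TMM factors, robust quasi-likelihood fit, no covariate), and p-values were adjusted over all tested genes. CPM values are counts scaled to the library total, and log2 CPM uses TMM factors and a prior count of 2. TMM factors were higher in SCC by 0.19 on the log2 scale, which enters the fold changes and not the CPM. The standard error is the log2 fold change over the square root of F. Hc was compared with markers by an exact permutation test.

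Receptor signal sums the counts of 1429 chemosensory receptor genes and divides by their coding length in kb, with counts over the 98th percentile of a library set to it. The background of a gene is that rate times the length of its longest coding transcript. Lengths and coordinates came from GENCODE M21 (GRCm38), which matched 24022 genes, 646 of them through an older symbol. The 399 others had nothing subtracted. Promoters came from RefSeq (GRCm38.p6).

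The members, gene lists and alternatives were chosen with earlier results of these data known. The genes named are the members, the called genes of the complement, upstream signal and acute phase lists, the 3 most similar genes of each called member and the first 3 markers of a cell type list. C1qa, C1qb, C1qc, C6, C5ar1, Slc34a2, Lamp3, Lyz2, Napsa, Cd14, Csf1r, Marco, Apob and the untested genes were named after their values were seen. One called gene of the lists is counted but not reported here.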

Additional observations from a re-analysis of the deposited data

Results flagged for a closer look

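In 4 of the 18 groups of 5 libraries (9 genes, each group), a single library stood apart from the other 4 on the log2 CPM scale by more than Dixon's critical value of 0.710, the gap over the range of the group. Chance flags about 1 in 20 such groups. Cd55 in SCC 1, at 0.943 CPM, stood below the other SCC libraries (0.748 of the range). Clu in normal 2, at 38.3 CPM, stood below the other normal libraries, and Serping1 in normal 1, at 197 CPM, was also low (0.716 of the range). Cfi in normal 2, at 0.684 CPM, rested on the 1 count of the gene in normal lung. With 0 counts in the other 4 its gap was bound to equal the range, so the chance rate does not hold for it.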

How the results depend on the processing

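The number of genes called was 2791, of which 1645 were higher and 1146 lower in SCC. It was 7542 (5470 higher, 2072 lower) without a filter on low counts, 4697 (3551 higher) with 1 CPM in 5 libraries, 7767 (6378 higher) with the DESeq2 Wald test and 6025 (3259 higher, 2766 lower) with limma-voom. It was 1330 (592 higher, 738 lower) with SCC 2 and SCC 5 alone, 1755 (963 higher) after background subtraction and 799 (443 higher, 356 lower) with the receptor signal as a covariate. On leaving out 1 library it ran from 2313 to 3534 (1304 to 2207 higher, 1009 to 1473 lower). The median fold change of all genes moved by -0.39 on the log2 scale without a filter and by 0.20 with upper-quartile factors.

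Hc kept its direction and call in all 20 alternatives, and C3 and Serping1 in 19 of 20. The covariate fit gave -0.94 for C3, -1.36 for Serping1, 4.47 for Cfi and 0.04 for C4b, and C4b was also not called with SCC 2 and SCC 5 alone (-0.96) or after subtraction (-1.68). On leaving out 1 library, C3 ranged from -2.01 to -1.53, Hc from -4.53 to -3.81, C4b from -1.75 to -1.33 and Serping1 from -2.01 to -1.66, each with its call, and Cfi from 5.47 to 7.44 in the 9 sets that could test it. Without SCC 2 Cfi did not pass the filter. Cd55 was called without a filter (-1.77), with 1 CPM in 5 libraries (-1.44), with DESeq2 (-1.47), with limma-voom (-1.89) and in 5 of the 10 sets that left out 1 library (-1.90 to -1.63). Over all 10 sets it ranged from -1.90 to -1.21. C2, never called, changed sign with upper-quartile factors (0.18), limma-voom (0.70) and without SCC 5 (0.14) or SCC 2 (0.10). It ranged from -0.62 to 0.14 on leaving out 1 library, and was -2.04 with SCC 2 and SCC 5 alone and -3.87 with the covariate. The covariate also turned the sign of Csmd2 (-0.17), C5ar2 (-0.39) and Stag2 (0.07). The cause of these moves was not tested.

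No paired analysis was possible because the labels give no shared replicate numbers. Low counts limit C2, Cfi and C1ra, and intervals on counts cover counting error only.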
